A study of Mus musculus with 9 samples.

Results

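Il10 and 3 transcription factors that are known to act on it were followed across naive CD4 T cells and lung Th2 cells of mice with acute or chronic allergic airway inflammation. The genes were chosen by name: Il10 and Areg, which encode products of T cells tied to the restraint of inflammation and to tissue repair, and Maf, Prdm1 and Nfil3, whose products regulate Il10. Of these 5 genes, 4 had a probe set that named them alone, and each had 1, so that 4 of 34760 probe sets and 4 of 19937 genes are described. Areg is not analysed here.

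Interleukin 10 is a secreted cytokine that acts through STAT3 to limit the activation of macrophages, dendritic cells and T cells. T cells of several effector lineages, Th2 cells among them, can make it after antigen stimulation. c-Maf, the product of Maf, binds and activates the Il10 gene in T cells. Blimp-1, the product of Prdm1, is a zinc finger repressor of effector and memory lymphocytes that together with c-Maf promotes Il10 expression. NFIL3 (E4BP4) is a basic leucine zipper factor that is needed for full Il10 expression in Th1 and Th2 cells.

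RNA was measured on 9 Affymetrix arrays, 3 for each of 3 groups. Naive cells (sorted as CD4+ and CD44-, among other criteria) came from the spleens of sham-treated mice at day 29. Acute and chronic Th2 cells were sorted from perfused, enzyme-digested lungs as CD4+ CD69+ ST2+ cells, at day 29 (acute, 1 week of inflammation) and at day 104 (chronic, 12 weeks). The mice that gave the Th2 cells received 3 intraperitoneal injections of 10 µg ovalbumin with 1.5 mg alum on days 1, 14 and 21. Aerosol of 1% ovalbumin followed, on 3 consecutive days for the acute group and in 2 challenges per week over 12 weeks for the chronic group. All 3 groups, the naive cells included, were stimulated with anti-CD3 and anti-CD28 antibodies for 8 h after the sort, per the labels. The labels name no strain, age or sex of the mice. Cell state, organ and ovalbumin treatment cannot be told apart in a comparison with naive cells, to which the day is added for chronic cells. Nor can the stage of inflammation and the day be told apart in the comparison of the Th2 groups.

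Values are log2 intensities, on which a difference of 1 is a doubling of the signal. A gene was called changed at a limma p-value below 0.05 after Benjamini-Hochberg adjustment over all 19937 genes. The titles call the arrays of a group biological replicates, but whether they came from separate animals is not given, so that p-values measure the spread between these samples. The RNA is that of a sorted population, in which fewer cells of a kind and less RNA per cell cannot be told apart. Pairwise Pearson correlations over all genes within a group ran from 0.980 to 0.996, except those of naive replicate 1 with the other naive arrays, at 0.939 and 0.941. Naive replicate 1 also stood apart for genes that T cell receptor signals induce: the cytokine gene Il2 was at 5.07 there and at 11.33 and 11.27 on the other naive arrays, so that these genes go against the stimulation that the label of that array gives. Background was read from 1015 olfactory receptor genes, the genes of smell, with a 95th percentile of 6.68 over the 9 arrays. The genes described were set against the same percentile of each array, and genes of the lists named below against 6.68.

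The promoters of Prdm1 and Nfil3 are shown because both genes rose in lung Th2 cells, and because AP-1 and CREB, which T cell receptor signals activate, bind short sites that can be looked for in them. The RefSeq promoter table used (GRCm38.p6) held these 2 of the 4 genes. Each sequence gives the 250 bases before an annotated start, 5′ to 3′ on the strand of the gene, and capitals mark matches to the motifs named below. The Prdm1 stretch is chr10:44458749-44458998 on the minus strand, before the start of a transcript model that begins inside the annotated span of the gene. The Nfil3 stretch is chr13:52981040-52981289, also on the minus strand and also inside the annotated span of its gene, so that neither stretch lies upstream of the whole gene.
Prdm1: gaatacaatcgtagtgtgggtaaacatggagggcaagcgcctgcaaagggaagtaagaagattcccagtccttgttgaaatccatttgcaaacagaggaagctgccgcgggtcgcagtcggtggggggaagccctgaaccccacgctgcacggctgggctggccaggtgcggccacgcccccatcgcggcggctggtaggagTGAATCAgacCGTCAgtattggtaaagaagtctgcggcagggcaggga
Nfil3: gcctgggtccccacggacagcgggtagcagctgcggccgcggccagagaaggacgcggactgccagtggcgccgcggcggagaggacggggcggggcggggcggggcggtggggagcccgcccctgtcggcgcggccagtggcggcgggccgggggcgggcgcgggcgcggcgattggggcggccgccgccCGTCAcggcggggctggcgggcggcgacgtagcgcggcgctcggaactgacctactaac

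Searching both strands for 8 motifs gave matches to 2 of them. The Prdm1 stretch held 1 AP-1 motif, TGANTCA, with its bases at -48 to -42 from the start, and 1 short form of the cyclic AMP response element, TGACG, read on the opposite strand at -38 to -34. In the Nfil3 stretch the same short element lay at -59 to -55, also on the opposite strand. Among 32851 mouse promoter stretches of this length, 6.75% held the AP-1 motif and 17.8% the short element. The other 6 motifs were the full cyclic AMP response element TGACGTCA, which contains the short one, a MAF site TGCTGA, an NFIL3 site TTANNTAA, a GATA site AGATAA, an NFAT core GGAAA and a Blimp-1 core GAAAGT. They were in 1.55%, 16.1%, 5.43%, 9.99%, 55.6% and 12.3% of promoters in that order. None of these letters occurred in either stretch, which says nothing of binding elsewhere.

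Il10 had the largest change of the 4 genes. On the naive arrays its level was 5.48, 4.97 and 4.70. Acute Th2 arrays gave 12.47, 11.75 and 12.01, and chronic Th2 arrays gave 12.64, 12.63 and 12.43. The groups of Th2 arrays lay far above all naive arrays, on which Il10 was below the 95th percentile of the olfactory receptor genes of the same array in 3 of 3 cases. With means of 5.05 ± 0.39 (SD, n = 3) in naive, 12.08 ± 0.37 in acute and 12.57 ± 0.12 in chronic cells, Il10 rose by 7.03 on the log2 scale in acute Th2 cells (SE 0.23, 95% interval 6.51 to 7.54, limma adjusted p = 5.38e-07). This is a 130-fold difference in signal, the 2nd largest rise among all genes. In chronic Th2 cells the rise was 7.52 (SE 0.23, interval 7.0 to 8.03, adjusted p = 3.48e-07), 183-fold and the largest rise of all genes. Since the naive level lies in the range of background, both folds and both ranks depend on the height of that background.

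Maf was at 6.85, 6.43 and 6.04 on the naive arrays. Its level was 10.85, 10.48 and 10.61 on the acute arrays and 11.33, 11.48 and 10.94 on the chronic arrays. No naive array came near the Th2 arrays, although the naive arrays spread over 0.80, more than for the other 3 genes. The naive level was above the 95th percentile of the olfactory receptor genes on replicates 1 and 2 and below it on replicate 3. Maf rose by 4.21 (SE 0.22, interval 3.72 to 4.70, adjusted p = 8.56e-06), 18.5-fold, in acute cells, and by 4.81 (SE 0.22, interval 4.32 to 5.30, adjusted p = 3.85e-06), 28.1-fold, in chronic cells. By size of rise it was 21st and 13th among all genes.

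Prdm1 was the most even of the 4 genes within the naive and the acute group. Its level was 6.28, 6.18 and 6.18 in naive, 9.80, 9.82 and 9.80 in acute and 10.22, 10.32 and 10.01 in chronic cells. The 3 acute arrays lay within 0.02 of each other, and all naive values were under the background percentile of their own array. The rise was 3.60 (SE 0.09, interval 3.38 to 3.81, adjusted p = 1.74e-07), 12.1-fold, in acute cells and 3.97 (SE 0.09, interval 3.76 to 4.18, adjusted p = 8.23e-08), 15.7-fold, in chronic cells, and these folds too depend on the background.

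Nfil3 was the only one of the 4 genes above the background percentile of each of the 3 naive arrays, by 0.04 to 0.30. It was at 6.69, 6.54 and 6.55 in naive, 9.47, 9.45 and 9.50 in acute and 9.70, 9.98 and 9.59 in chronic cells. On naive replicates 2 and 3 it was below 6.68, the percentile over all 9 arrays. The lowest Th2 array was again well above the highest naive array. Nfil3 rose by 2.88 (SE 0.11, interval 2.64 to 3.13, adjusted p = 1.16e-06), 7.37-fold, in acute cells and by 3.16 (SE 0.11, interval 2.91 to 3.41, adjusted p = 6.51e-07), 8.94-fold, in chronic cells.

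**Figure D1:**
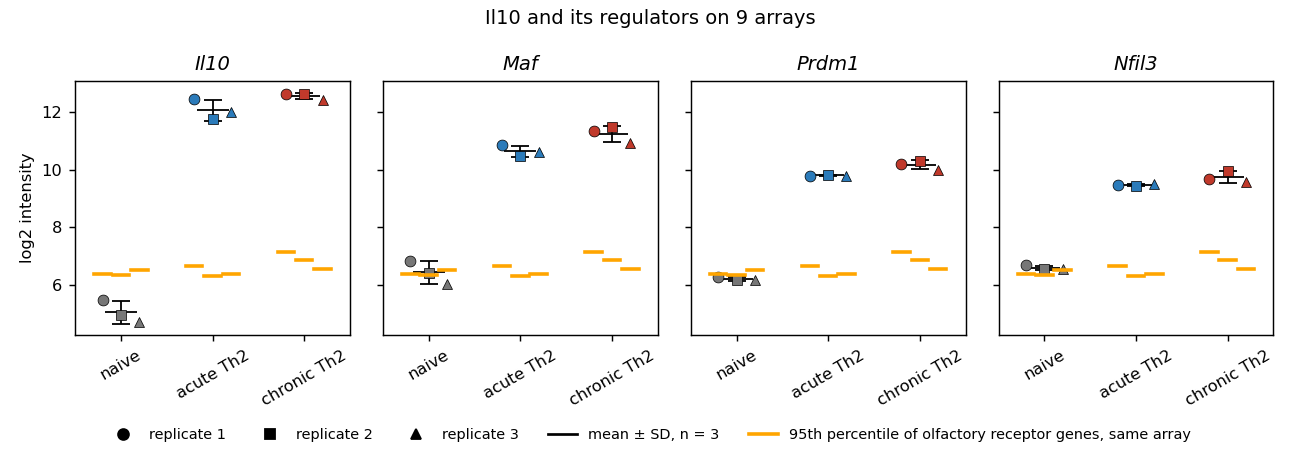
Log2 intensity (vertical axis) of Il10, Maf, Prdm1 and Nfil3 on each of the 9 arrays, by group, with the mean and SD of each group as black bars and the 95th percentile of olfactory receptor genes on the same array (6.32 to 7.14) as orange dashes. All 6 Th2 arrays lie above their dash and above every naive array for each of the 4 genes, and naive Il10 lies below the dashes, at 4.70 to 5.48.

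All 4 genes were thus called higher in both comparisons with naive cells, which share the naive arrays. Of all genes, 3.67% were called higher and 2.20% lower in acute than in naive cells, and 3.68% higher and 4.20% lower in chronic than in naive cells. Arrays of the 4 genes did not overlap between naive and Th2 groups in either comparison. That was so, in the direction higher in Th2 cells, for 8.80% of all genes in the acute and 15.6% in the chronic comparison.

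**Figure D2:**
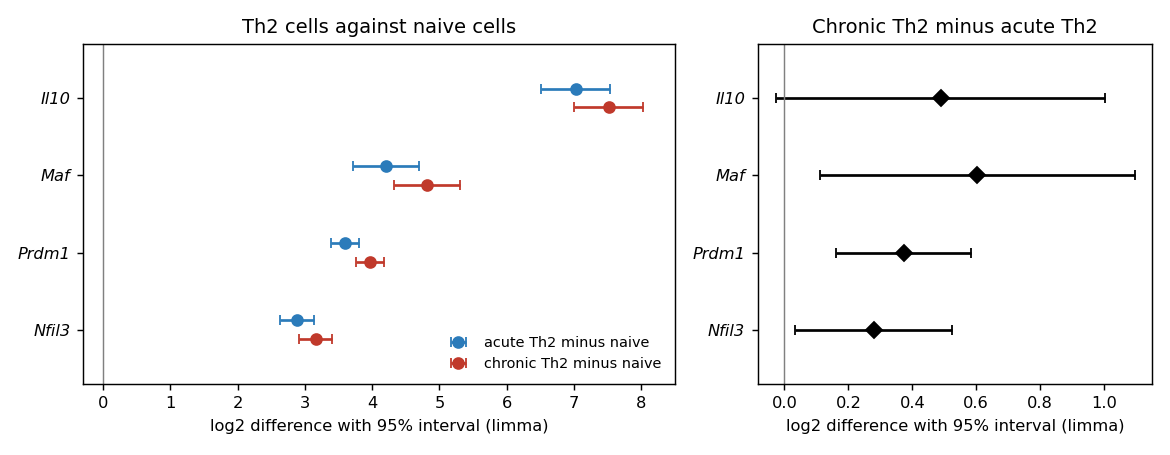
Differences between groups in log2 intensity (horizontal axis) with 95% intervals from limma for each of the 4 genes, in the comparisons acute minus naive, chronic minus naive and chronic minus acute. The differences from naive cells run from 2.88 (Nfil3, acute) to 7.52 (Il10, chronic), and those between the Th2 groups from 0.28 to 0.60.

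Between the stages, none of the 4 genes was called different, and each of the 4 had a higher mean in chronic than in acute cells. For Il10 the difference was 0.49 (SE 0.23, interval -0.03 to 1.00, unadjusted p = 0.0606, adjusted p = 0.346), and the groups overlapped, since chronic replicate 3 lay 0.04 below acute replicate 1. The 3 regulators did not overlap, with every chronic array above every acute array, as for 11.8% of all genes. Their differences were 0.60 for Maf (interval 0.11 to 1.09, unadjusted p = 0.0221), 0.37 for Prdm1 (interval 0.16 to 0.58, unadjusted p = 0.00334) and 0.28 for Nfil3 (interval 0.03 to 0.52, unadjusted p = 0.0306), each with an adjusted p of 0.322. As folds, the 4 differences were 1.40 for Il10, 1.52 for Maf, 1.29 for Prdm1 and 1.21 for Nfil3. The comparison called 0.0150% of genes higher and 0.0150% lower, 3 genes each.

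Background was higher as well on chronic replicates 1 and 2, but not on chronic replicate 3. The median level of the olfactory receptor genes was 5.67 and 5.51 on chronic replicates 1 and 2. It was 5.15 on chronic replicate 3, within the range of the acute arrays (4.98 to 5.21). The median difference between chronic and acute cells was 0.33 over the olfactory receptor genes and 0.04 over all genes. The part of the higher background in the differences of the 4 genes was not tested. With each array centred on its median, the stage differences were 0.42 for Il10, 0.54 for Maf, 0.31 for Prdm1 and 0.21 for Nfil3. Chronic replicate 3, whose background was the lowest of the chronic arrays, was also the lowest chronic array for all 4 genes. The same array was lowest for 39.9% of all genes and 44.3% of the 734 genes called higher in chronic than in naive cells. It was above the highest acute array by 0.09 for Maf, 0.18 for Prdm1 and 0.08 for Nfil3.

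The stage call depended on how arrays were weighted. With array weights, which count arrays that deviate from their group for less, all 4 genes were called higher in chronic cells, with differences of 0.60 for Il10 (adjusted p = 0.00884), 0.76 for Maf (adjusted p = 0.00570), 0.44 for Prdm1 (adjusted p = 0.00492) and 0.37 for Nfil3 (adjusted p = 0.0100). That fit called 6721 genes between the stages in place of 6. Without naive replicate 1 and chronic replicate 3 together, Maf (0.76, adjusted p = 0.0369) and Prdm1 (0.46, adjusted p = 0.0318) were called, among 1087 genes.

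**Figure D3:**
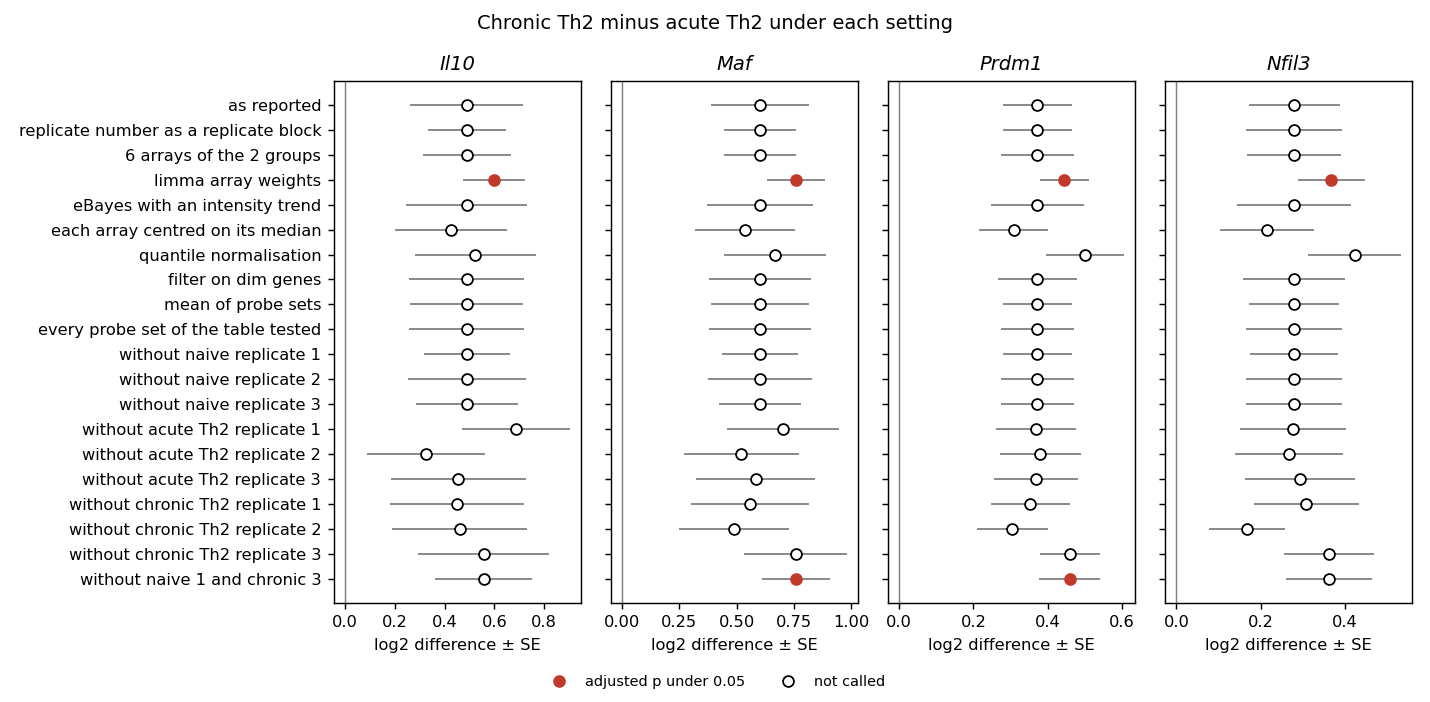
Difference between chronic and acute Th2 cells in log2 intensity (horizontal axis) for the 4 genes under the main analysis and each of 19 alternatives, with bars of 1 SE and filled points where the adjusted p was under 0.05. Every value lies above 0, from 0.17 for Nfil3 to 0.76 for Maf, and only array weights and the omission of naive replicate 1 with chronic replicate 3 took any of the 4 past an adjusted p of 0.05.

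The genes whose pattern over the 9 arrays came nearest to each of the 4 were found by the root mean square difference between log2 levels centred on each gene's own mean. Nearest to Il10 were the Th2 cytokine genes Il5 (0.43), Il9 (0.53) and Il13 (0.56), followed by Lilr4b (0.77), where the median over all genes was 3.44. Maf was nearest to the chemokine receptor gene Ccr2 (0.21), the inhibitory receptor gene Ctla4 (0.33), Fgl2 (0.34) and Perp (0.36), against a median of 2.15. For Prdm1 the order was Vdr, the vitamin D receptor (0.17), Nek6 (0.17), the integrin gene Itgb8 (0.20) and Ttc39c (0.24), against 1.79. Nfil3 came nearest to the inhibitory receptor gene Lag3 (0.17), the aryl hydrocarbon receptor gene Ahr (0.19), Ptpn4 (0.19) and Adam8 (0.20), against 1.43. These values describe 9 arrays in 3 groups, so that likeness is mostly likeness of the group means. Unlike Il10, Il5 and Il13 had lower means in chronic than in acute cells, with differences of -0.22 and -0.23, and neither was called.

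**Figure D4:**
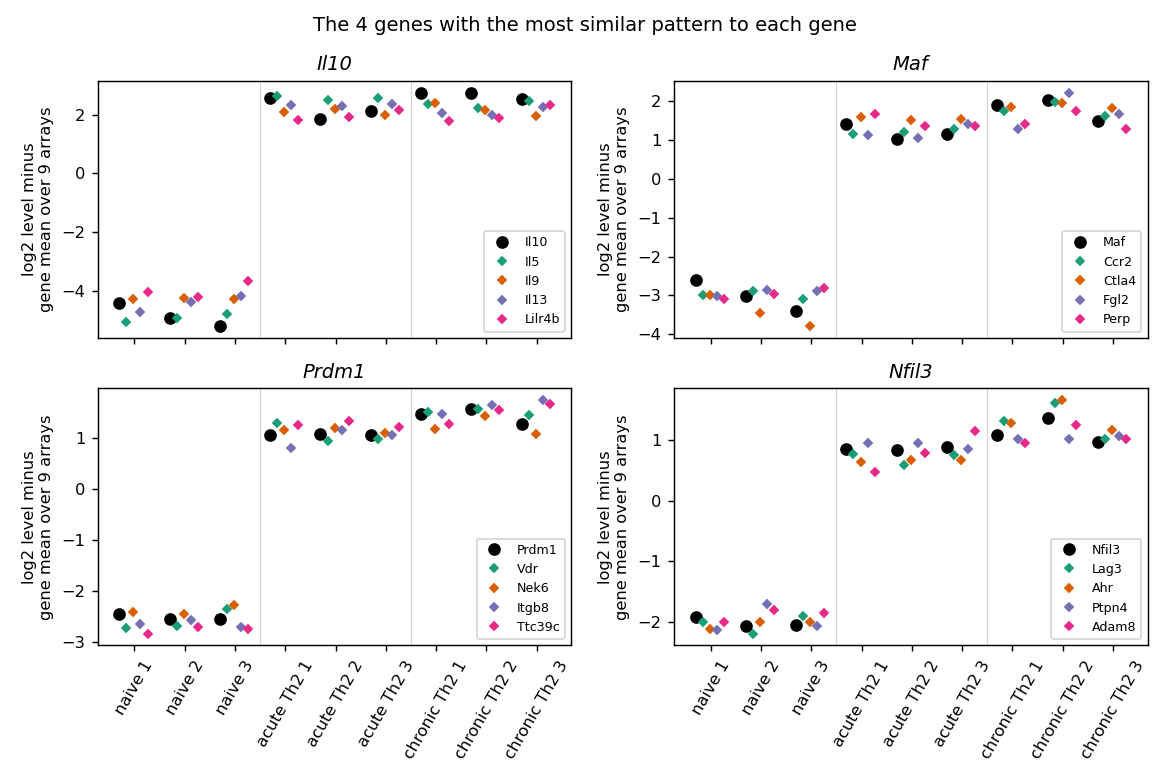
Log2 intensity centred on the gene's own mean (vertical axis) over the 9 arrays for each of the 4 genes and the 4 genes most like it. All points of naive arrays lie below 0 and all points of Th2 arrays above it, with root mean square differences of 0.43 to 0.77 for Il10 and 0.17 to 0.20 for Nfil3.

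Of 22 other transcription factors known to regulate Il10, 7 rose and 1 fell in both comparisons with naive cells. The median difference over the 22 was 0.55 in acute and 0.51 in chronic cells, where that over all genes was -0.03 and 0.04. The largest rises were those of Gata3, the master regulator of Th2 cells (3.07 in acute, adjusted p = 0.000567, and 2.98 in chronic, adjusted p = 0.000680), Ahr (2.70 and 3.41, adjusted p = 4.61e-06 and 1.01e-06) and the AP-1 factor gene Batf (2.54 and 2.30, adjusted p = 2.88e-05 and 5.51e-05). Ahr was at 6.20, 6.32 and 6.31 in naive, 8.95, 9.0 and 9.0 in acute and 9.60, 9.98 and 9.48 in chronic cells, so that it did not overlap between the stages, and its stage difference of 0.70 was not called. The other rises were in Ikzf3, Tbx21, Hif1a and Stat3, and the calls of Tbx21 and Hif1a were lost in several omissions of a single array. Tbx21 lost its acute call without naive replicate 3, any acute array or chronic replicate 1 or 2 (largest adjusted p = 0.141), and its chronic call without chronic replicate 1 or 2 (0.0750). Hif1a lost its acute call without any acute array or chronic replicate 1 or 2 (0.105), and its chronic call without acute replicate 2 or 3 or chronic replicate 1 or 2 (0.0880). Between the stages, 0 of 22 passed limma's adjusted test and 2 had an unadjusted p under 0.05, as had 2962 of all 19937 genes.

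The gene that fell was Bach2, a repressor that holds back effector differentiation and Prdm1. It was at 10.24, 10.18 and 10.27 in naive, 7.69, 8.23 and 8.26 in acute and 7.79, 8.21 and 8.29 in chronic cells. It fell by 2.17 (adjusted p = 0.000163) and by 2.13 (adjusted p = 0.000183).

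Irf4, which T cell receptor signals induce and which acts with Batf at Il10, was not called, with differences of 1.65 (adjusted p = 0.568) and 1.69 (adjusted p = 0.354). Its naive level was 6.87 on replicate 1 and 11.73 and 11.71 on the other naive arrays. Without naive replicate 1 the list had 10 genes higher and 4 lower in both comparisons, and the Irf4 difference was 0.04 and 0.07. Il10 itself ranged over 0.78 on the naive arrays, with replicate 1 the highest, and its difference kept its call without any single array.

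**Figure D5:**
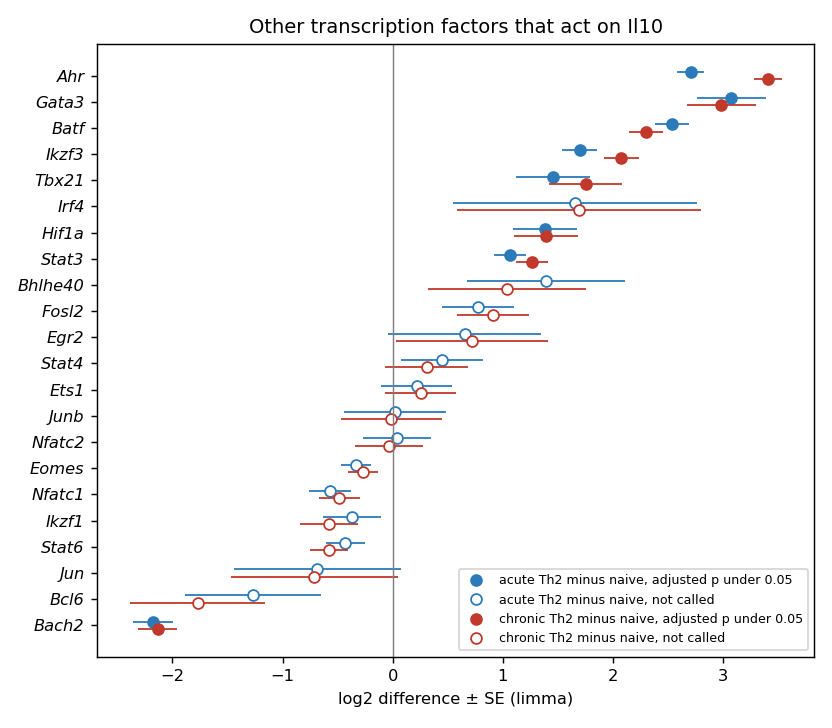
Differences from naive cells in log2 intensity (horizontal axis) of the 22 other Il10 regulators for acute and chronic Th2 cells, with bars of 1 SE and filled points for genes called at an adjusted p under 0.05. Ahr, Gata3 and Batf lie farthest to the right, at 2.30 to 3.41, and Bach2 is the only gene with filled points on the left, at -2.17 and -2.13.

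Receptors that are known to drive Il10 in T cells moved in both directions. Of 13 measured, 4 rose and 2 fell in acute cells (median -0.24), and 3 rose and 3 fell in chronic cells (median -0.15). The costimulatory receptor gene Icos rose by 3.69 (adjusted p = 9.14e-05) and 4.0 (adjusted p = 5.74e-05), and Il12rb1, a subunit of the interleukin 12 receptor, by 1.73 and 1.42. Il21r, the receptor of interleukin 21, fell by 2.27 (adjusted p = 2.25e-05) and by 1.92 (adjusted p = 6.32e-05), and Il6ra fell by 1.99 in chronic cells, a call lost without any single Th2 array (largest adjusted p = 0.121). The acute rises numbered 2 without acute replicate 2 or 3, as did the chronic rises and falls each without acute replicate 2 or 3 or any chronic array, and the chronic rises without naive replicate 2 or 3. Without naive replicate 1 the rises and falls numbered 5 and 4 in acute and 4 and 4 in chronic cells.

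Among 8 genes of the Il10 receptor and its signalling, 3 rose in acute and 5 in chronic cells and none fell (medians 0.73 and 0.82). Il10ra, the ligand-binding chain of the receptor, was at 7.03, 6.46 and 6.50 in naive, 9.28, 9.52 and 9.32 in acute and 9.36, 9.46 and 9.45 in chronic cells. It rose by 2.71 (adjusted p = 1.51e-05) and 2.76 (adjusted p = 1.29e-05), with both Th2 groups above all naive arrays. Stat3 rose by 1.07 and 1.26, and Bcl3, which interleukin 10 induces in macrophages, by 1.05 and 1.17. Socs1 and Socs3, feedback inhibitors of cytokine signals, were the others called in chronic cells, and the chronic count fell to 3 without any 1 of naive replicates 2 and 3, the acute replicates or chronic replicates 2 and 3.

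Il24, Il20 and Il19 are cytokine genes of the same family and lie next to Il10 on chromosome 1 in the RefSeq annotation of GRCm38.p6. Il24 was at 5.66, 6.05 and 6.06 in naive, 9.02, 8.76 and 8.26 in acute and 7.94, 7.98 and 7.94 in chronic cells. It rose by 2.76 (adjusted p = 5.20e-05) and 2.03 (adjusted p = 0.000323), and its acute arrays were all above its chronic arrays, the opposite order to Maf, Prdm1 and Nfil3, with no call between the stages. Il20 and Il19 were under the background percentile on all 9 arrays, with Il19 differences of 0.32 and 0.41, of which the chronic one passed the test. The median difference of the olfactory receptor genes was 0.01 in acute minus naive and 0.34 in chronic minus naive, and the Il19 call cannot be told apart from that rise. Over the 4 genes, Il10 included, 2 rose in acute and 3 in chronic cells (medians 1.54 and 1.22), and these counts were 3 without naive replicate 1 and 2 without naive or chronic replicate 2.

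In the families of the 3 regulators, the other members called were Mafk, Prdm2, Hlf and Tef. Of all genes, 3.67% were called higher and 2.20% lower in acute cells, and 3.68% and 4.20% in chronic cells. Of 6 MAF factors, Maf rose and the small MAF gene Mafk fell by 0.50 and by 0.74, with medians of -0.17 and -0.10. Of 7 PRDM factors, Prdm1 rose and Prdm2 fell by 0.79 and by 0.97, with medians of -0.04 and -0.32. Without naive replicate 2 or 3, any acute array or chronic replicate 2, Mafk and Prdm2 lost their acute calls, and Prdm2 lost both calls without chronic replicate 1 or 2. Without naive replicate 1 or chronic replicate 3, the chronic falls of the PRDM list numbered 2. Of 4 genes of Nfil3 and the PAR factors, which share its DNA site, Hlf rose with Nfil3 by 2.01 (adjusted p = 8.88e-05) and 2.46 (adjusted p = 2.50e-05), while Tef fell by 0.56 and by 0.45, the latter lost without naive or chronic replicate 2.

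Inhibitory receptors that c-Maf and Blimp-1 are known to promote in T cells were measured as well. Of 8 genes, 4 rose in acute and 5 in chronic cells and none fell (medians 2.20 and 2.53). Tigit rose by 4.98 (adjusted p = 1.74e-07) and 5.25 (adjusted p = 8.47e-08), Ctla4 by 4.96 and 5.28, and Havcr2, which encodes TIM-3, by 3.42 and 3.43. Lag3 was at 6.66, 6.47 and 6.77 in naive, 9.44, 9.25 and 9.42 in acute and 9.98, 10.29 and 9.69 in chronic cells, which did not overlap between the stages (difference 0.61, adjusted p = 0.322). Pdpn, which encodes podoplanin, was called in chronic cells alone (0.23 in acute and 1.38 in chronic cells), and its stage difference was not called (adjusted p = 0.301). Procr and Cd160 were under background on all arrays.

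Other T cells that make interleukin 10 could be among the sorted cells, so markers of regulatory T cells were measured. Of 11 such genes, 7 rose and none fell in each comparison with naive cells (medians 1.42 and 1.21), and 0 were called between the stages. Of all genes, 3.67% were called higher in acute and 3.68% in chronic cells. The acute rises of the list numbered 6 without acute replicate 2 or 3. Without naive replicate 1, 8 rose in each comparison and 1 fell in chronic cells. Foxp3, the defining factor of regulatory T cells, was at 8.96, 9.03 and 9.26 in naive, 10.10, 10.72 and 10.67 in acute and 10.29, 10.08 and 10.26 in chronic cells. It rose by 1.41 (adjusted p = 0.00148) and 1.13 (adjusted p = 0.00502), and the mean level of the 11 genes was 7.87 to 8.33 in naive, 9.49 to 9.72 in acute and 9.50 to 9.53 in chronic cells. Ctla4, Capg (1.92 and 1.91) and Itgae (1.49 and 1.71) had the largest rises of the list. Their part in the rise of Il10 and Prdm1 was not tested.

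Type 1 regulatory T cells make interleukin 10 without Foxp3. Of 7 genes listed for them, Il10 among them, 5 rose in both comparisons (medians 2.74 and 3.35). Gzmb, which encodes the cytotoxic protease granzyme B, rose by 5.05 (adjusted p = 4.53e-05) and 4.56 (adjusted p = 8.89e-05). Eomes was under background on all arrays, and of the genes that rose Il10, Lag3 and Havcr2 also stand on other lists used here.

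Other cells could carry Maf or Il10 RNA, and most of their markers were at background. Of 72 markers in 10 lists for B, CD8, NK, myeloid, granulocytic, mast, epithelial, endothelial and stromal cells, 57 were under the background percentile on all 9 arrays. These included 9 of 9 dendritic cell, 6 of 6 NK cell, 6 of 7 B cell and 7 of 9 macrophage and monocyte markers, the last with a mean level of 5.70 to 5.79 in naive, 6.12 to 6.18 in acute and 6.34 to 6.39 in chronic cells and median differences from naive cells of -0.01 and 0.11. Called higher were 4 of the 72 in acute cells (Ccr2, Ccr3, Hdc and Gzma) and 4 in chronic cells (Ccr2, Ccr3, Hdc and Sftpa1), and Cd79a was called lower in chronic cells. Gzma and Cd79a each kept the call in 1 of 9 omissions of a single array, and Sftpa1 lost it without naive replicate 2 or chronic replicate 1 or 2. Ccr2, which effector T cells also use, was the largest of these, at 4.20 and 4.77. Markers of group 2 innate lymphoid cells overlap with those of Th2 cells, and 0 of 7 were under background on all arrays, with a mean level of 7.13 to 7.69 in naive, 9.09 to 9.15 in acute and 8.87 to 8.99 in chronic cells. Of these 7, 3 rose and 0 fell in each comparison with naive cells (medians 1.88 and 1.83). The rises numbered 4 in each without naive replicate 1 or acute replicate 1. The part of group 2 innate lymphoid cells in the rise of Il10 was not tested.

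Of the sort markers, Cd4, Cd44 and Cd69 were measured, and Cd44 rose by 1.93 and 1.89. Cd4 (0.35 and -0.19) and Cd69 (-0.51 and -1.09) were not called, and Il1rl1, which encodes ST2, is not analysed here. Without naive replicate 1, 2 of the 3 measured sort markers were called higher and 1 lower in acute cells, and 1 higher and 1 lower in chronic cells. Genes that the T cell receptor induces early, as the antibodies given after the sort would do in every group, had 20 measured members, of which 1, Dusp2, fell (by 1.70 and by 1.65) and none rose, with medians of -0.33 and -0.59. Their mean level ranged from 8.72 to 10.62 over the naive arrays. Without naive replicate 1, 3 rose and 8 fell in acute and 3 rose and 10 fell in chronic cells (1 and 1 without naive replicate 3), whereas Il10, Maf, Prdm1 and Nfil3 were called higher in both with that array left out.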

How the data were processed

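Microarray log2 intensities, 1 value per probe set and array, were used as deposited: the authors normalised them with RMA, per the submitters' processing notes, which also name limma. The sources used here give no version, genome build or filter. Of 34760 probe sets, 21640 name 1 gene, 1321 several and 11799 none in the platform annotation. A gene was taken from its probe set of highest mean among those naming it alone, which gave 19937 genes. Entrez identifiers of 21553 probe sets were matched to a mouse gene table.

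The main test was limma's moderated test (version 3.58.1, run under R 4.3.3, two-sided), fitted by lmFit to all 9 arrays with group as the only term, followed by contrasts.fit and eBayes, with Benjamini-Hochberg adjustment over all genes of a comparison. No dim genes were removed. The number of arrays limits the precision, and an exact permutation of 3 against 3 arrays cannot give a p below 0.1. The procedure was tested on simulated data. Replicate numbers were not used as pairs.

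The genes described, 26 gene lists with 208 symbols (14 not analysed here) and the olfactory receptor background were chosen with earlier results of these data known. Named from each list were up to 3 called genes with the largest absolute difference in each comparison with naive cells, up to 2 between stages, and defining markers as values. For likeness, the 4 nearest genes were named, leaving out predicted genes and antigen receptor segments. Bach2, Irf4, Il2, Socs1, Socs3, Pdpn and the other genes outside this rule were named after their values were seen. Alternatives tried were a replicate block, array weights, quantile normalisation, median centring, a trended prior, a filter on dim genes, every probe set tested, 6 arrays alone and arrays left out.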

Additional observations from a re-analysis of the deposited data

Results flagged for a closer look

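Hdc, which encodes the enzyme that makes histamine, was measured here as 1 of 9 markers of mast cells and basophils. Its difference from naive cells was 2.75 in acute and 0.95 in chronic Th2 cells, and the test of the difference between both, which share the naive arrays, gave -1.80 (limma adjusted p = 0.0235). Its level was 6.48, 6.54 and 6.73 in naive, 9.66, 9.15 and 9.19 in acute and 7.46, 7.35 and 7.80 in chronic cells, so that no array of one group overlapped with another. The call was lost with the 6 Th2 arrays alone (adjusted p = 0.0510), with quantile normalisation (0.0532), with every probe set tested (0.0602) and with the replicate number as a block (0.142). It was also lost without naive replicate 3 (0.0551), any acute replicate (0.136 to 0.161) or chronic replicate 1 (0.145) or 2 (0.201). Of the 9 markers, 7 were under the background percentile on all 9 arrays, among them Cpa3, Mcpt8 and Fcer1a.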

How the results depend on the processing

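Il10, Maf, Prdm1 and Nfil3 kept direction and call in both comparisons with naive cells under all 19 alternatives, with Il10 at 6.83 to 7.24 in acute and 7.34 to 7.80 in chronic cells (largest adjusted p = 0.000126). Between the stages all 4 stayed above 0. Leaving out each array in turn gave 0.32 to 0.69 for Il10, 0.49 to 0.76 for Maf, 0.30 to 0.46 for Prdm1 and 0.17 to 0.36 for Nfil3, with adjusted p-values of 0.0737 to 0.765. Array weights gave 0.60, 0.76, 0.44 and 0.37 in that order and called 4 of the 4 genes. Leaving out naive replicate 1 with chronic replicate 3 called 2, Maf at 0.76 and Prdm1 at 0.46. The cause was not tested.

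Counts over all genes moved more. Against 1171 genes in acute minus naive, 762 were called with the 6 arrays of the groups compared, 4019 with array weights, 2624 without naive replicate 1 and chronic replicate 3, and 653 to 2424 with single arrays left out. In chronic minus naive, 1571 became 686, 4675, 4665 and 734 to 3438 in that order, the highest without naive replicate 1. Between the stages, 6 became 2, 6721, 1087 and 0 to 12, and 3 with a trended prior and 1 with every probe set tested. The 6 split as 3 higher and 3 lower, as 1 and 4 with arrays centred and as 4 and 1 with quantile normalisation.

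With the replicate number as a block, 1261, 1844 and 0 genes were called in the 3 comparisons, and 4, 4 and 0 of the 4 genes described. Correlations between same-numbered arrays, taken on deviations from the group means, ran from -0.09 to 0.33, 0.04 to 0.12 and -0.01 to 0.57. In that order, 4, 3 and 3 of 6 arrays correlated best with their own number. With 3 arrays per group, these values cannot show whether a number marks a shared animal or day, which the labels do not give. Signal over background limits the naive levels of all 4 genes, so that their folds depend on it. Il10 and Prdm1 lay below the background percentile of each naive array. Naive Maf was below it on replicate 3 and at most 0.46 above it on the others, and naive Nfil3 was 0.04 to 0.30 above it.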

Other observations

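Areg encodes a ligand of the epidermal growth factor receptor, and other genes of that pathway were measured. Of 6 other ligands, limma called 0 in either comparison with naive cells (medians 0.00 and 0.13), and Ereg, Btc, Egf and Epgn were under the background percentile on all 9 arrays. Hbegf, the ligand with the largest difference, was at 0.51 in acute (adjusted p = 0.0667) and 0.25 in chronic cells. Of 8 receptors and sheddases, which release the ligands from the membrane, Erbb3 rose by 0.56 in acute cells (adjusted p = 0.0152), a call lost without naive replicate 3 or any acute array, and none was called in chronic cells. The sheddase gene Adam10 was at -0.61 and -0.83 and Adam17 at -0.28 and -0.51, neither called. Without naive replicate 1, 2 genes of this list were lower in chronic cells, and without chronic replicate 3, 2 were higher in acute cells.

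Of 5 receptors that are known to induce Areg, 2 rose in both comparisons (medians 0.30 and -0.07). Il18rap, a chain of the interleukin 18 receptor, rose by 2.17 (adjusted p = 0.00220) and 1.72 (adjusted p = 0.00742). Ptger2, a prostaglandin E receptor, rose by 2.14 (adjusted p = 0.00308) and 1.80 (adjusted p = 0.00754).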
